A study of Mus musculus with 29 samples.

Results

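The genes described here encode 5 interferon-inducible proteins of the proteasome and the 3 catalytic subunits that are their constitutive counterparts, 8 of the 28229 genes in the count table. They were chosen by gene symbol. Psmb8, Psmb9 and Psmb10 encode the inducible catalytic beta subunits, also known as LMP7, LMP2 and MECL-1. Psme1 and Psme2 encode the alpha and beta chains of the PA28 activator, a ring that caps the proteasome core. Psmb5, Psmb6 and Psmb7 encode the catalytic beta subunits of the standard core, which Psmb8, Psmb9 and Psmb10 replace, each in that order, when an immunoproteasome is built. The proteasome degrades ubiquitin-tagged proteins, and some of the peptides it releases are carried into the endoplasmic reticulum by the Tap1 and Tap2 transporter and loaded on MHC class I. Immunoproteasomes are abundant in cells of the immune system and are made by other cells, tumour cells included, under interferon. The exchange of catalytic subunits alters which peptide bonds are cut and so which peptides reach class I molecules.

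The cells were NMM, a mouse melanoma line with mutant NRAS, grown in IMDM with 10% FCS. Cells were stimulated for 2, 6, 12 or 24 h, rinsed 5 times with PBS, and stimulated a second time for 24 h before RNA was taken for stranded mRNA sequencing. IFNγ was given at 100 ng/ml and TGFβ at 10 ng/ml. The groups, named by first and second stimulation, were medium then IFNγ and TGFβ then IFNγ (IFNγ second), medium then TGFβ and IFNγ then TGFβ (TGFβ second), TGFβ then medium and IFNγ then medium (a cytokine withdrawn), and, as the control, medium then medium. Each held 4 libraries, 1 for each duration of the first stimulation, and 1 further library had medium for 24 h and then a mix of both cytokines. The libraries of a group therefore differ in the duration of the first stimulation. No label says that they came from separate experiments, so the spread between them, and every p-value below, covers these libraries of 1 cell line.

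Library totals were 17179530 to 23668015 counts, and mitochondrial genes held 0.596% to 1.31% of them. Cxcl9, a chemokine gene switched on by IFNγ, had 114 to 156 CPM (counts scaled to the library total) in the 4 libraries of medium then IFNγ, against at most 0.345 CPM in medium then medium. Mmp12, a metalloproteinase gene, had 19.8 to 23.2 CPM in medium then TGFβ, against 1.27 to 4.80 CPM in medium then medium. Tgfbi, another check of TGFβ, had 30.8 to 43.4 CPM in medium then TGFβ, against 14.6 to 24.2 CPM in medium then medium. It was also higher in medium then IFNγ, at 29.2 to 54.2 CPM. The medium then medium library of 6 h stood apart from the other 3 of its group: Irf1 had 20.0 CPM there (41.6 to 47.6 in the others), Col3a1 had 1461 CPM (480.9 to 544.3) and the mitochondrial share was 1.24% (0.841% to 0.868%). The members' comparisons with medium are also given without it where that changed a call, and the counts over gene lists where it changed the count. Of 8 melanocyte and melanoma markers listed, 4 were in the table, and the defining genes Sox10 and Pmel were near 0 (at most 0.135 and 0.444 CPM). The other 2, Mitf and Gpnmb, had 8.40 to 20.2 and 26.4 to 276 CPM. Both fell under TGFβ (log2 changes of -0.41 and -1.47, edgeR adjusted p = 0.00136 and 0.000431) and after its withdrawal (-0.24 and -1.92, adjusted p = 0.0418 and 2.17e-05), as inducible genes did, and whether these shifts bear on the results was not tested. The 2 calls after withdrawal became 1 without the 6 h medium library, without the duration term and with only the 2 groups fitted. They also became 1 without the libraries of any 1 duration, and the 2 calls under TGFβ became 1 with only the 2 groups fitted. The leukocyte genes Ptprc and Itgax were also near 0, at most 0.172 and 0.0502 CPM in any library. The summed level of 4 fibroblast genes was 194.7 to 233.5 CPM in medium then IFNγ and 476 to 606.3 CPM in medium then TGFβ, against 576.5 to 1943 CPM in medium then medium, and whether cells of that kind bear on the results was not tested. The 1943 CPM is that of the 6 h medium library. By edgeR at an adjusted p below 0.05, 3 of the 4 fell under IFNγ and 1 under TGFβ. Of all genes, 43.8% and 23.3% changed in either direction. Without the 6 h medium library the counts of fibroblast genes were 2 and 0. In bulk RNA, fewer cells expressing a gene and less of its RNA per cell cannot be told apart.

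On GRCm38, the build named in the submitters' processing notes, Psmb8 (ENSMUSG00000024338) lies at chr17:34197721-34201454 on the plus strand and Psmb9 (ENSMUSG00000096727) at chr17:34181987-34187764 on the minus strand, both within the MHC. Psmb9 and Tap1 share bases 34187553 to 34187764 of that chromosome, at their opposed 5′ ends. Psme1 (ENSMUSG00000022216, chr14:55578123-55581529, plus strand), Psme2 (ENSMUSG00000079197, chr14:55587441-55591113, minus strand) and Psmb5 (ENSMUSG00000022193, chr14:54614119-54618022, minus strand) share a chromosome. Psmb10 (ENSMUSG00000031897) lies at chr8:105935735-105938444 on the minus strand, Psmb6 (ENSMUSG00000018286) at chr11:70525367-70527858 on the plus strand and Psmb7 (ENSMUSG00000026750) at chr2:38588036-38644087 on the minus strand. All 8 passed the filter on low counts. Psme2 has a near copy, Psme2b, which held 2 to 225 counts a library, so reads that fit both genes may have been split.

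Promoter windows of RefSeq on GRCm38.p6, running from 250 bases before to 50 bases after a transcript start, were found for 7 of the 8 genes, all but Psmb7. They were searched on both strands for 3 promoter motifs: the interferon-stimulated response element core GAAANNGAA, the gamma-activated site TTCNNNGAA, and the CCAAT box, spelled CCAAT. The CCAAT box is not specific to interferon-responsive promoters. Of 32851 windows genome-wide, 8.56% held the first, 8.3% the second and 37.4% the third. The sequences that held a match in the inducible genes are shown because these genes moved together below, and that of Psmb5 because it is the constitutive counterpart of Psmb8. Each is printed 5′ to 3′ on the strand of its gene, with a matching motif in capitals. Positions count from the transcript start, and -1 is the base before it.
Psmb8, chr17:34197945-34198194, plus strand, with a gamma-activated site at -97 to -89: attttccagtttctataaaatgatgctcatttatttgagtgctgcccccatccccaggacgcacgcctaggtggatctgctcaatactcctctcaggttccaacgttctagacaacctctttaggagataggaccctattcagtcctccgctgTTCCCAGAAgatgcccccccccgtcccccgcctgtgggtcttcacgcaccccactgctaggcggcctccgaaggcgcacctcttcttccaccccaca
Psmb9, chr17:34187331-34187580, minus strand, with a CCAAT box (read as ATTGG on this strand) at -8 to -4: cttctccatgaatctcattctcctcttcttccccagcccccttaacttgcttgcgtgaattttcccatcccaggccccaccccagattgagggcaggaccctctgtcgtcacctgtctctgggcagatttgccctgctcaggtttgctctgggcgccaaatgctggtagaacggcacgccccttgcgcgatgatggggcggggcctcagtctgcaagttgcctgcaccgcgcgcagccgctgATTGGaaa
Psme1, chr14:55578494-55578522, plus strand, with a response element core read on the other strand at 11 to 19 after the start: gagctgtgctTTCGCTTTCccttcccgct
Psmb5, chr14:54617996-54618245, minus strand, with no match: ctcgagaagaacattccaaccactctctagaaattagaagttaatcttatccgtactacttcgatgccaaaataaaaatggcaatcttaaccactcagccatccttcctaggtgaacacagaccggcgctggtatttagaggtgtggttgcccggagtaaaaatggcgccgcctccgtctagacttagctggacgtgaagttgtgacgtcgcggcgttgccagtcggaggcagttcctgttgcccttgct
The Psmb9 and Tap1 transcripts start 225 bases apart in opposite directions. Most of the Psmb9 stretch therefore also lies upstream of Tap1, whose own window holds the same CCAAT box at -222 to -218. The window of Psmb9 held only the CCAAT box, and neither the response element core nor the gamma-activated site. The windows of Psmb10, Psme2 and Psmb6 held no match to the 3 motifs. A match is a description of the letters, and its absence says only that these letters are not in the window.

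With medium alone, the PA28 alpha gene and the constitutive subunits Psmb6 and Psmb7 were the most abundant of the 8 transcripts per length of the principal transcript. In CPM per kilobase of the principal transcript, medium then medium cells held 196 ± 8.78 of Psme1, 155 ± 4.07 of Psmb6, 104 ± 4.03 of Psmb7, 73.7 ± 2.73 of Psmb8, 66.6 ± 3.85 of Psme2, 25.8 ± 1.16 of Psmb5, 20.1 ± 3.40 of Psmb10 and 11.7 ± 3.83 of Psmb9 (SD, n = 4). Psmb8 was thus above its counterpart Psmb5 without any added cytokine, while Psmb9 and Psmb10 were below Psmb6 and Psmb7. Of neighbours in this order, Psmb8 and Psme2 had overlapping libraries and the others did not. The order depends on the length used: per kilobase of all exons joined, the means were 98.5 for Psme1, 65.9 for Psmb6, 36.3 for Psme2, 35.5 for Psmb8, 35.3 for Psmb7, 25.8 for Psmb5, 15.4 for Psmb10 and 4.34 for Psmb9, so Psmb7 no longer stood above Psme2 and Psmb8.

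Across all 29 libraries the 3 constitutive subunits stayed within a narrow band and the 5 inducible genes did not. The highest library exceeded the lowest by 1.29-fold for Psmb5 (19.8 to 25.6 CPM), 1.51-fold for Psmb6 (101.3 to 153.3 CPM) and 1.42-fold for Psmb7 (108.3 to 153.7 CPM). The same ratio was 186.3 for Psmb9, 160.3 for Psmb8, 20.3 for Psmb10, 7.70 for Psme2 and 7.41 for Psme1. Among the 7 groups of 4 libraries, leaving the single library of the mix aside, medium then IFNγ had the highest mean of all 5 inducible genes and TGFβ then IFNγ the next, and the lowest 2 were medium then TGFβ and TGFβ then medium. The ranges of the upper 2 groups did not overlap for Psmb8, Psmb9 and Psmb10 and did overlap for Psme1 and Psme2. TGFβ then IFNγ did not overlap the next group for any of these genes but Psmb8, and the neighbours further down overlapped. Overlap of ranges, here and below, describes these genes only, and the share of all genes without overlap is not given.

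**Figure D1:**
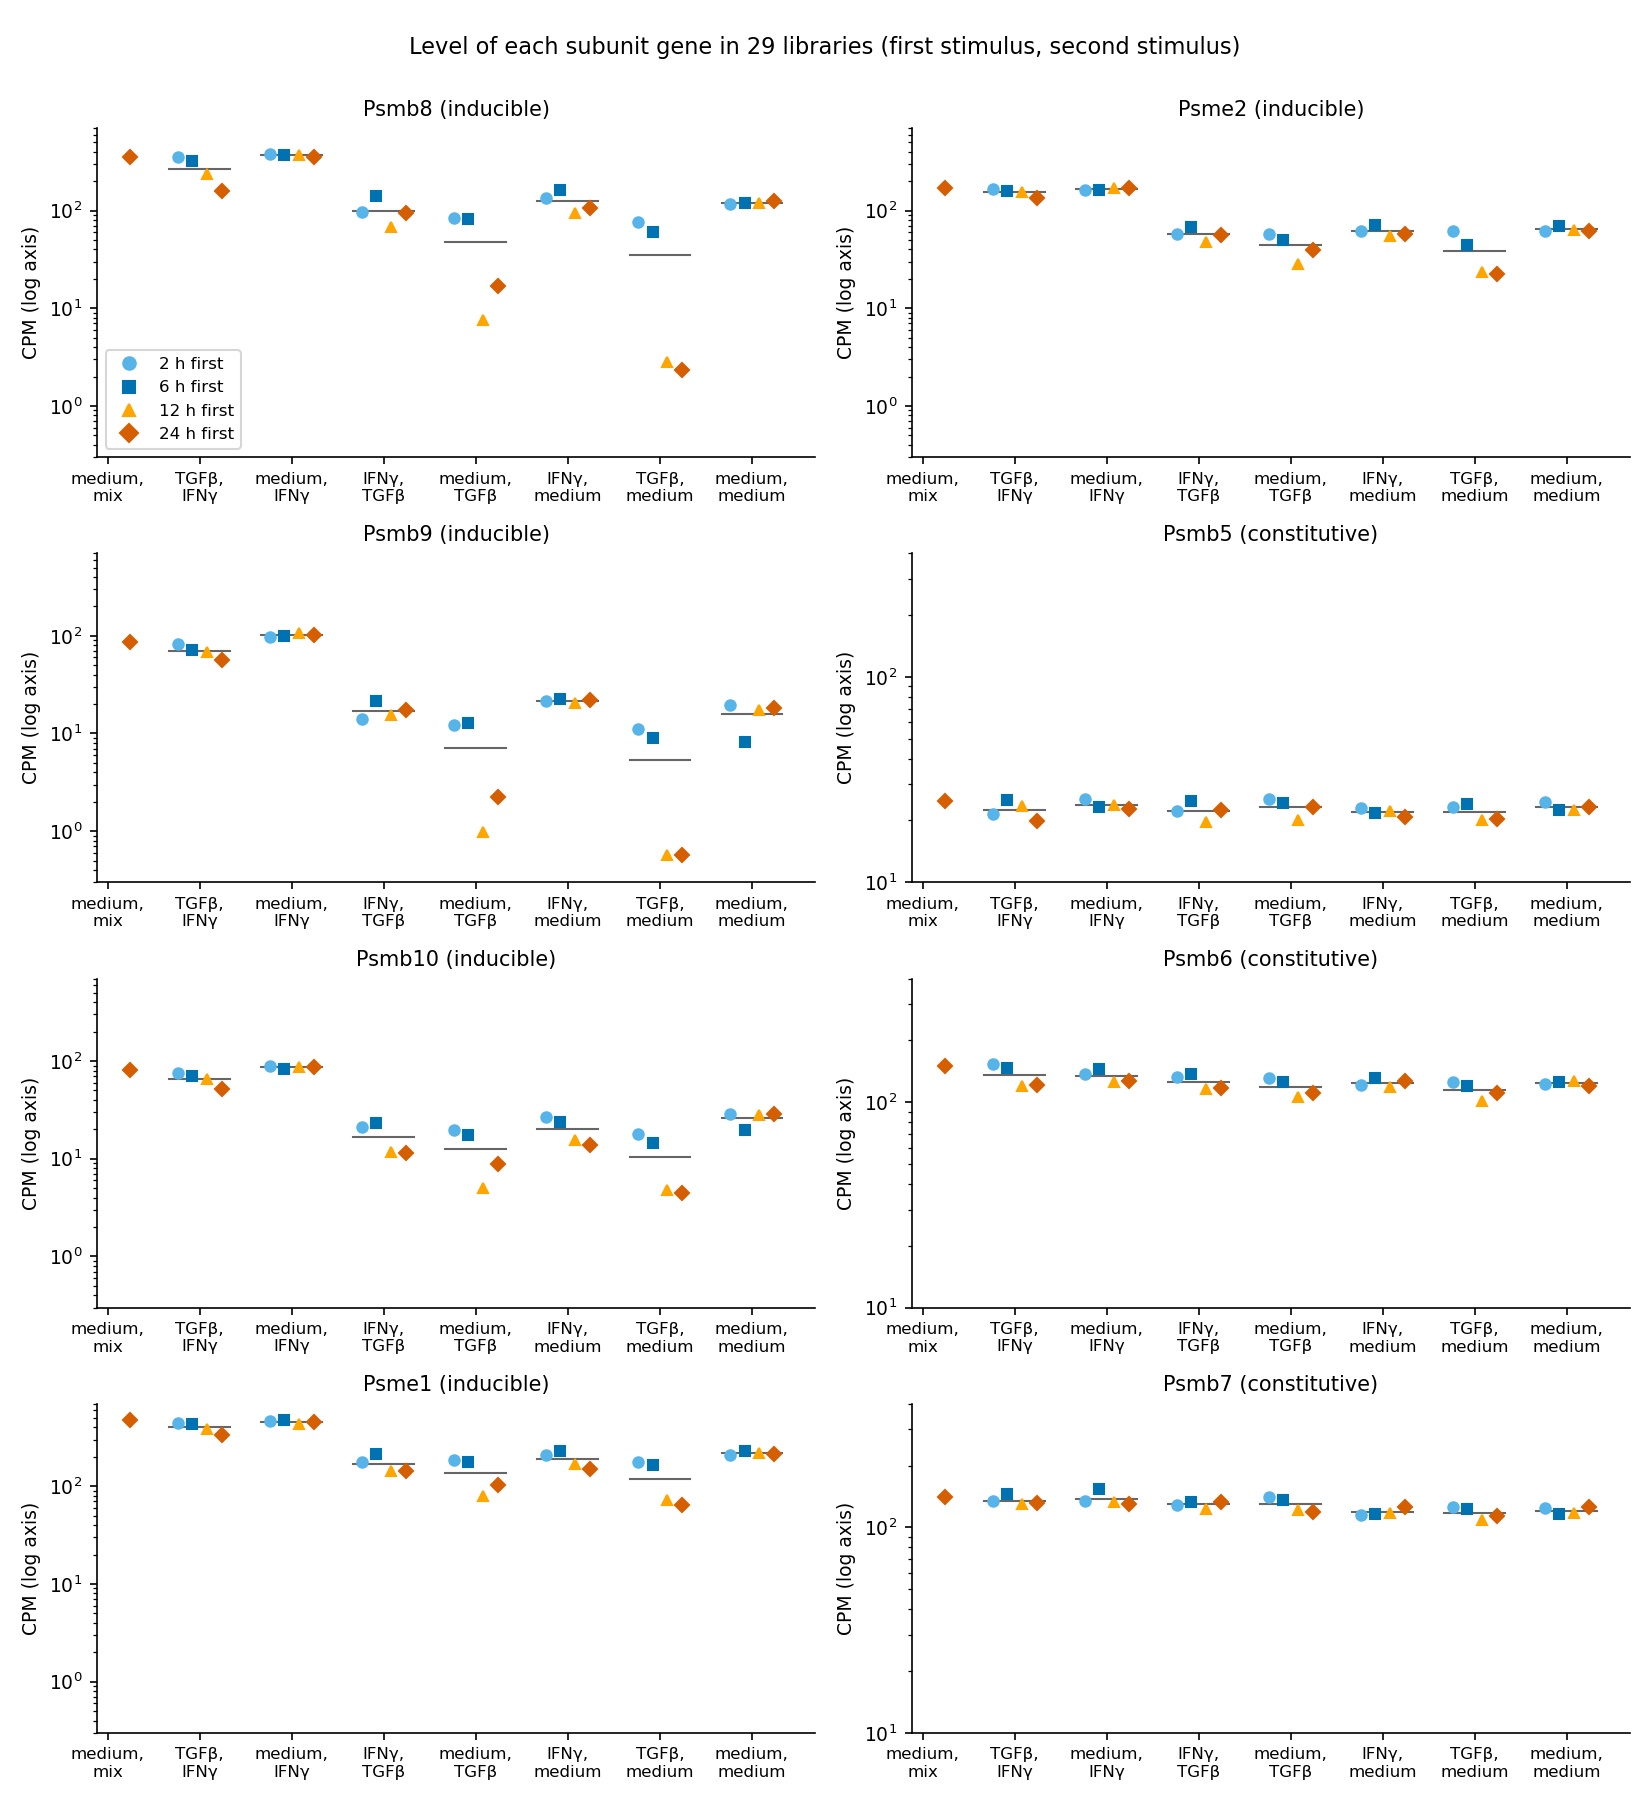
CPM on a log axis for each of the 8 genes, 1 panel a gene, in the 29 libraries, with groups along the horizontal axis and medium then medium at the right. Points are single libraries, marked by the duration of the first stimulation, and grey lines are group means. In the inducible genes the 2 TGFβ groups that never met IFNγ split into high points at 2 and 6 h and low points at 12 and 24 h, while the 3 constitutive panels are nearly flat.

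Adding IFNγ for 24 h raised all 5 inducible genes. Psmb8 had 377.5, 372.2, 368.4 and 356.7 CPM in the medium then IFNγ libraries of 2, 6, 12 and 24 h, against 115.5, 118.2, 120.1 and 126.0 CPM in medium then medium. Psmb9 had 96.9, 98.6, 106.8 and 101.2 CPM with IFNγ, against 19.8, 8.26, 17.3 and 18.1 CPM in medium. Psmb10 had 89.9, 83.1, 87.5 and 87.5 CPM with IFNγ, against 28.8, 19.6, 28.2 and 28.6 CPM in medium. Every IFNγ library of these 3 genes was above every medium library, and the low medium value of Psmb9 and Psmb10 is the 6 h library that stands apart. Of the PA28 chains, Psme1 averaged 456.1 ± 17.0 CPM with IFNγ and 217.6 ± 9.77 CPM in medium, and Psme2 averaged 166.9 ± 5.36 CPM with IFNγ and 64.1 ± 3.71 CPM in medium (SD, n = 4 each), again with no overlap. The duration of the preceding medium made little difference within the IFNγ group, in which each inducible gene's libraries lay close to their mean.

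In edgeR's quasi-likelihood fit of all 29 libraries, with group and duration as terms and adjustment over 14935 genes, the log2 change under IFNγ was 2.67 for Psmb9 (SE 0.46, adjusted p = 6.16e-05) and 1.72 for Psmb10 (SE 0.27, adjusted p = 1.88e-05). It was 1.39 for Psme2 (SE 0.18, adjusted p = 2.13e-06), 1.06 for Psme1 (SE 0.19, adjusted p = 6.92e-05) and 1.60 for Psmb8 (SE 0.56, adjusted p = 0.0234). Thus 5 of 5 inducible genes passed the threshold of 0.05 upwards, with a median change of 1.60, where 43.8% of all genes passed in either direction and 22.7% passed upwards, with a median of -0.01 over all genes. The call for Psmb8 was lost when the duration term was dropped (adjusted p = 0.0652), without the 2 or 6 h medium library (0.0744 and 0.0651) and without the 12 or 24 h IFNγ library (0.0863 and 0.0717), although its groups did not overlap. It passed in 10 of 17 alternatives, and its adjusted p ran between 4.02e-06, when the 2 groups were fitted by themselves with an SE of 0.06, and 0.0863. The other 4 inducible genes passed in all 17.

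The constitutive subunits changed little under IFNγ. Psmb7 had 134.1, 153.7, 132.4 and 130.6 CPM in medium then IFNγ, against 124.5, 116.2, 117.3 and 125.1 CPM in medium then medium, and it rose by 0.19 on the log2 scale (SE 0.06, edgeR adjusted p = 0.00937). Psmb6 had 137.8, 145.4, 126.0 and 126.9 CPM with IFNγ, against 122.8, 124.7, 126.9 and 119.2 CPM in medium, with a log2 change of 0.11 (SE 0.06, adjusted p = 0.108). Psmb5 had a log2 change of 0.04 (SE 0.07, adjusted p = 0.708). So 1 of 3 counterparts passed, by a far smaller step than any inducible gene, and it did not pass without its 6 h IFNγ library (0.14, adjusted p = 0.0536) or when the 6 h libraries, the 12 h libraries or the other groups were left out of the fit. With the 12 h library of medium then medium left out, Psmb6 passed too (0.17, adjusted p = 0.0169).

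**Figure D2:**
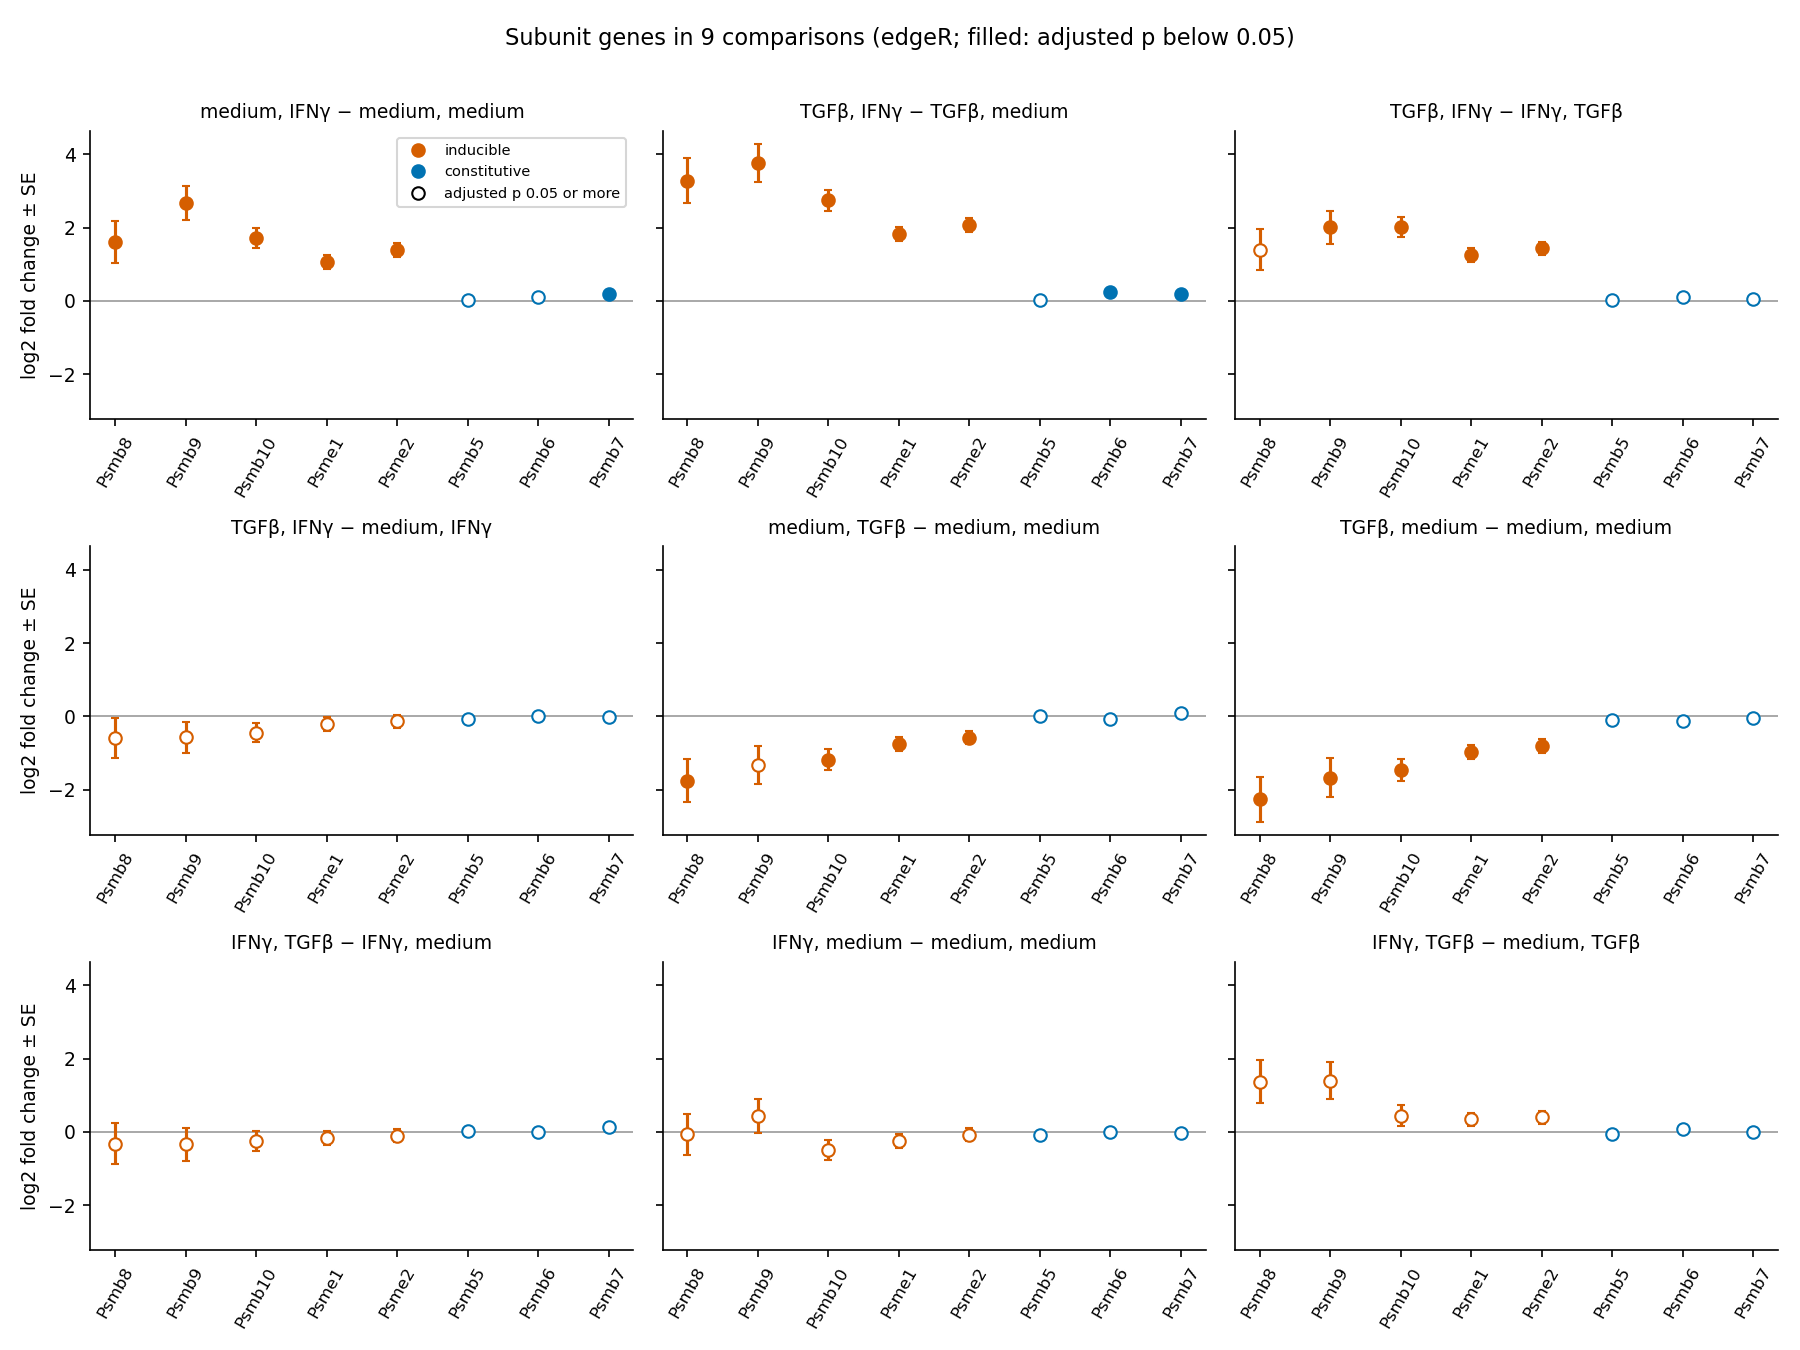
Log2 fold change with its standard error for the 8 genes in 9 comparisons, 1 panel each, from the edgeR fit, with inducible genes in orange and constitutive ones in blue and filled points where the adjusted p is below 0.05. The orange points lie above 0 in the 3 comparisons of the top row, where IFNγ was second in the upper group only, and below 0 for medium then TGFβ and TGFβ then medium against medium then medium, while the blue points stay near 0.

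Adding TGFβ for 24 h lowered inducible genes, but by very different amounts in the 4 libraries. Psmb8 had 83.8, 82.4, 7.58 and 17.0 CPM in the medium then TGFβ libraries of 2, 6, 12 and 24 h, against 115.5, 118.2, 120.1 and 126.0 CPM in medium then medium. Psmb10 had 19.5, 17.4, 4.97 and 8.89 CPM with TGFβ, against 28.8, 19.6, 28.2 and 28.6 CPM in medium. Psmb9 had 12.35, 12.9, 0.973 and 2.23 CPM with TGFβ, against 19.8, 8.26, 17.3 and 18.1 CPM in medium. The 12 and 24 h libraries were far below medium for all 3 genes, and the 2 and 6 h libraries only a little, with Psmb9 at 6 h above its low medium library. The PA28 chains split the same way with smaller steps: Psme1 had 187.1, 179.0, 80.4 and 104.2 CPM with TGFβ, against 208.8, 231.3, 217.2 and 213.1 CPM in medium, and Psme2 had 57.8, 50.5, 28.5 and 39.8 CPM with TGFβ, against 61.5, 69.6, 62.9 and 62.3 CPM in medium. The ranges did not overlap for Psmb8, Psmb10, Psme1 and Psme2.

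TGFβ itself was present for 24 h in each of these 4 libraries, and what differed was the duration of the medium before it. The TGFβ-responsive genes Mmp12 and Fbln2 were high in all 4, at 19.8 to 23.2 and 108.4 to 162.8 CPM, against 1.27 to 4.80 and 18.7 to 27.0 CPM in medium then medium. Skil, of the same list, was not, at 187.2 to 209.8 CPM, against 180.5 to 209.2 CPM in medium then medium. Of the 6 genes of that list, 5 rose and 0 fell under TGFβ by edgeR, where 23.3% of all genes passed. Without the duration term 4 rose. Beyond the slope on duration given below, whether the response to TGFβ differed between the 4 libraries was not tested. Tap1 split as the inducible subunits did, with 94.2, 89.6, 17.4 and 33.4 CPM in medium then TGFβ at 2, 6, 12 and 24 h. The mitochondrial share of counts was 0.717%, 0.919%, 1.21% and 1.04% in the same 4 libraries, and its part in the split was not tested.

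In the edgeR fit the log2 change under TGFβ was -1.75 for Psmb8 (SE 0.59, adjusted p = 0.0336), -1.18 for Psmb10 (SE 0.29, 0.00444), -0.74 for Psme1 (SE 0.19, 0.00551) and -0.57 for Psme2 (SE 0.18, 0.025). Psmb9 had a log2 change of -1.31 (SE 0.52, adjusted p = 0.0704). Thus 4 of 5 inducible genes fell and the median was -1.18, where 23.3% of all genes passed, 11.6% downwards. The constitutive subunits had log2 changes of 0.00 for Psmb5, -0.07 for Psmb6 and 0.10 for Psmb7, and 0 of 3 passed (edgeR adjusted p = 0.992, 0.43 and 0.243). The calls rest on the low libraries and on the duration term: without that term 0 of 5 passed, with the 12 h libraries left out 0, with the 24 h libraries left out 1, and with only the 2 groups in the fit 0. Over 17 alternatives Psmb8 passed in 9 (adjusted p 0.0095 to 0.213), Psmb9 in 4 (0.0259 to 0.323), Psmb10 in 13 (0.00046 to 0.101), Psme1 in 14 (0.000741 to 0.102) and Psme2 in 8 (0.00516 to 0.193). The calls for Psmb8 and Psme2 were lost without any 1 of the 12 and 24 h libraries of either group (adjusted p 0.0852 to 0.119 and 0.0524 to 0.113). Psmb9 passed without the 6 h library of medium (fell by 1.59, adjusted p = 0.0264) or of TGFβ (fell by 1.76, adjusted p = 0.035).

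When TGFβ came first and was then withdrawn for 24 h, the inducible genes were low, and lowest in the 12 and 24 h libraries. Psmb8 had 75.8, 60.8, 2.81 and 2.36 CPM in TGFβ then medium at 2, 6, 12 and 24 h of TGFβ, against 115.5, 118.2, 120.1 and 126.0 CPM in medium then medium. The last 2 of these were 49 and 41 counts, and they were 42.8-fold and 53.5-fold below the medium libraries of the same duration. Psmb9 had 11.1, 9.01, 0.573 and 0.574 CPM after TGFβ, against 19.8, 8.26, 17.3 and 18.1 CPM in medium. Its 12 and 24 h values were 10 counts each, with an exact 95% Poisson interval of 4.8 to 18.4 counts that covers counting error only. Psmb10 had 18.1, 14.5, 4.76 and 4.42 CPM after TGFβ, against 28.8, 19.6, 28.2 and 28.6 CPM in medium. Every TGFβ library of Psmb8 and Psmb10 was below every medium library, and Psmb9 overlapped only through the 6 h medium library.

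Psme1 had 176.8, 163.4, 71.8 and 64.1 CPM in TGFβ then medium, against 208.8 to 231.3 CPM in medium then medium. Psme2 had 62.2, 44.4, 23.7 and 22.3 CPM after TGFβ, against 61.5 to 69.6 CPM in medium, and overlapped at 2 h. The 5 log2 changes from edgeR were -2.26 for Psmb8 (SE 0.61, adjusted p = 0.0068), -1.66 for Psmb9 (SE 0.53, 0.0207), -1.46 for Psmb10 (SE 0.29, 0.000659), -0.98 for Psme1 (SE 0.19, 0.000425) and -0.80 for Psme2 (SE 0.18, 0.00205). All 5 inducible genes fell, where 29.0% of all genes passed, 14.5% downwards, and 0 of 3 constitutive subunits passed, with log2 changes of -0.08, -0.12 and -0.04 for Psmb5, Psmb6 and Psmb7. The count dropped to 3 of 5 without the duration term and without the libraries of 12 h or of 24 h, and to 0 when only the 2 groups were fitted. The adjusted p over 17 alternatives ran from 0.000734 to 0.138 for Psmb8 (13 called) and from 0.00488 to 0.181 for Psmb9 (9 called, and lost without any 1 of the 12 and 24 h libraries), and each of the other 3 was called in 16.

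A slope on log2 duration was also fitted within each group. In TGFβ then medium, Psmb8 fell by 1.52 on the log2 scale for each doubling of the duration (SE 0.32, edgeR adjusted p = 0.0165). The slopes were -0.63 for Psmb10 (SE 0.14, adjusted p = 0.0239), -0.46 for Psme1 (SE 0.09, 0.0127) and -0.45 for Psme2 (SE 0.07, 0.00429), and Psmb9 had -1.13 (SE 0.28, 0.0537). So 4 of 5 inducible genes fell with duration where 1.33% of all genes passed, 1.23% downwards. In medium then TGFβ, where the duration is that of medium, the slopes were -0.81, -0.83, -0.41, -0.30 and -0.20 for Psmb8, Psmb9, Psmb10, Psme1 and Psme2, and 0 passed with edgeR (adjusted p = 0.416 each, with 0% of all genes called). The split between 6 and 12 h thus appeared both where TGFβ exposure differed and where it was 24 h throughout, so that the length of exposure and other differences between the libraries of each duration cannot be told apart. With 1 library per duration, neither can a slope and a single step, and without all 24 h libraries 0 of the 4 calls in TGFβ then medium were left. The mitochondrial share in these libraries was 0.927%, 1.00%, 1.23% and 1.23% at 2, 6, 12 and 24 h, and its part was not tested.

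**Figure D3:**
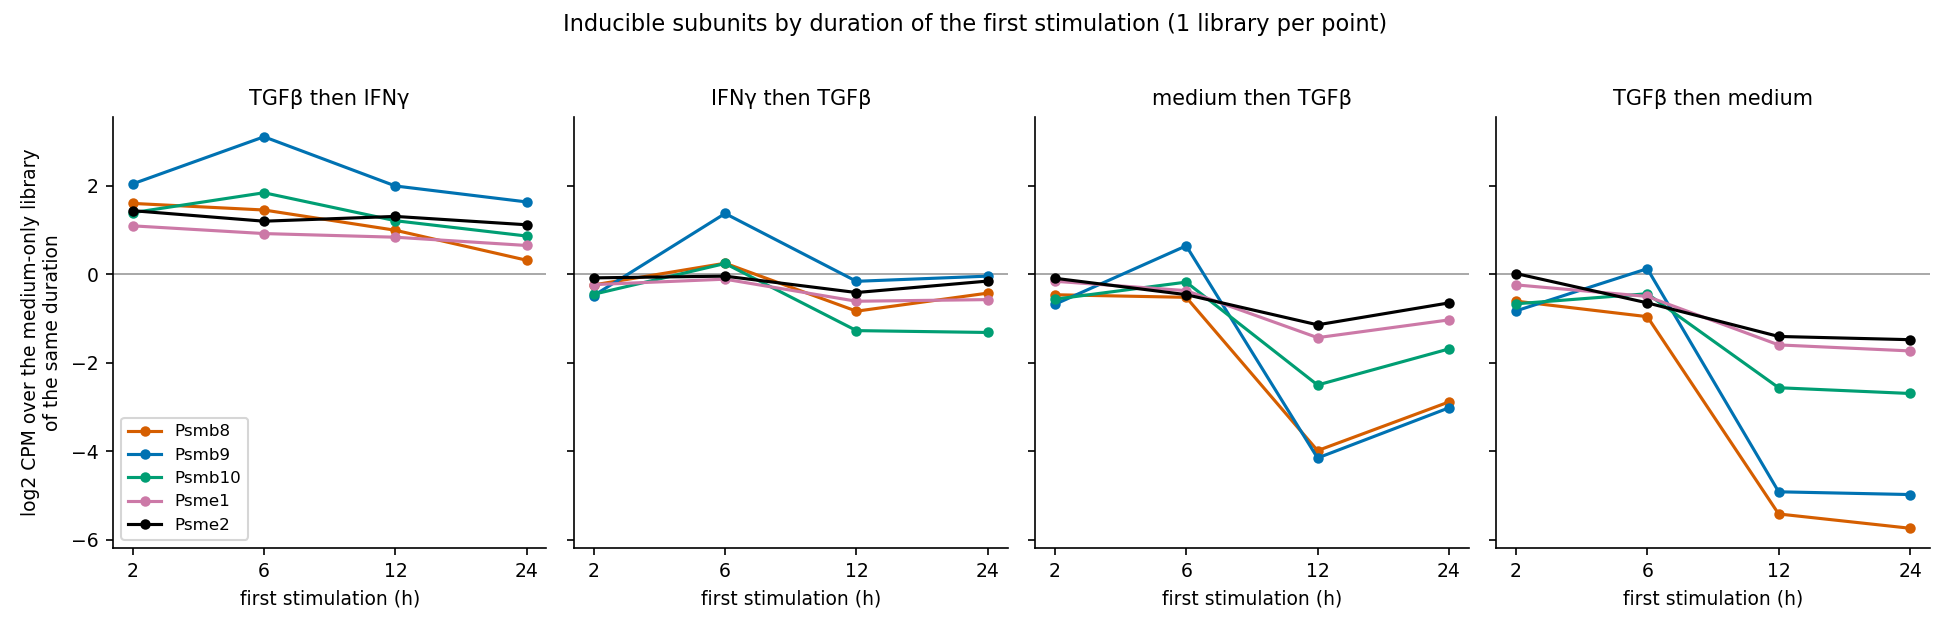
Log2 ratio of CPM to the medium then medium library of the same duration, against the hours of first stimulation, for the 5 inducible genes in 4 groups, with 1 library per point. In TGFβ then medium and in medium then TGFβ the lines drop between 6 and 12 h, to -5.42 for Psmb8 in TGFβ then medium, while those of IFNγ then TGFβ stay between -1.32 and 1.37 and those of TGFβ then IFNγ above 0.

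IFNγ given first and then withdrawn for 24 h left no inducible gene different from medium by edgeR. Psmb8 had 133.5, 162.8, 94.0 and 105.9 CPM in IFNγ then medium at 2, 6, 12 and 24 h, against 115.5 to 126.0 CPM in medium then medium. Psmb10 had 26.5, 24.0, 15.4 and 13.8 CPM after IFNγ, against 19.6 to 28.8 CPM in medium, so its 12 and 24 h libraries were below every medium library. Psmb9 had 21.7, 22.4, 20.4 and 22.2 CPM after IFNγ, against 8.26 to 19.8 CPM in medium. It was above medium in each pair of equal duration, and the ranges did not overlap. The log2 changes were -0.06 for Psmb8, 0.43 for Psmb9, -0.49 for Psmb10, -0.24 for Psme1 and -0.07 for Psme2, with edgeR adjusted p of 0.405 to 0.964. By edgeR, 0 of 5 passed after adjustment and 0 of 5 had an unadjusted p below 0.05, where 0.790% of all genes passed.

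After TGFβ, the level of the 3 inducible catalytic genes under IFNγ was lower at each duration, but no change passed the test across all genes. Psmb8 had 350.3, 323.4, 239.2 and 156.8 CPM in TGFβ then IFNγ at 2, 6, 12 and 24 h of TGFβ, against 377.5, 372.2, 368.4 and 356.7 CPM in medium then IFNγ. Psmb9 had 81.5, 71.2, 69.0 and 56.2 CPM after TGFβ, against 96.9, 98.6, 106.8 and 101.2 CPM after medium. Psmb10 had 75.5, 70.4, 65.2 and 52.1 CPM after TGFβ, against 89.9, 83.1, 87.5 and 87.5 CPM after medium. All 4 TGFβ libraries of these genes lay below all 4 medium ones, and the 24 h library was the lowest. Psme1 averaged 401.4 ± 51.5 CPM after TGFβ and 456.1 ± 17.0 CPM after medium, and Psme2 averaged 154.3 ± 13.5 CPM after TGFβ and 166.9 ± 5.36 CPM after medium (SD, n = 4 each), with overlap. The edgeR log2 changes were -0.59 for Psmb8 (SE 0.55, adjusted p = 0.524), -0.57 for Psmb9 (SE 0.42, 0.398), -0.44 for Psmb10 (SE 0.25, 0.266), -0.20 for Psme1 (0.508) and -0.13 for Psme2 (0.688). By edgeR 0 of 5 passed and 0 had an unadjusted p below 0.05, where 15.8% of all genes passed, 7.19% downwards. When only these 2 groups were fitted, Psmb9 (-0.54, adjusted p = 0.00552) and Psmb10 (-0.41, adjusted p = 0.0144) passed. Over all genes that fit called 2187, of which 1155 were higher, against 2365 called in the fit of all libraries. The slopes with TGFβ duration in TGFβ then IFNγ were -0.32, -0.14, -0.14, -0.11 and -0.08 per doubling for Psmb8, Psmb9, Psmb10, Psme1 and Psme2, with adjusted p of 0.603 to 0.794 by edgeR, and 0 passed where 0.167% of all genes did.

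Read against TGFβ then medium, IFNγ after TGFβ raised all 5 inducible genes. The log2 changes were 3.76 for Psmb9 (SE 0.51, edgeR adjusted p = 6.92e-06), 3.27 for Psmb8 (SE 0.61, 0.00024), 2.74 for Psmb10 (SE 0.29, 2.21e-07), 2.07 for Psme2 (SE 0.19, 1.88e-08) and 1.84 for Psme1 (SE 0.19, 1.64e-07). All 5 held in each of 17 alternatives, where 36.4% of all genes passed, 18.8% upwards. At 24 h of TGFβ, Psmb8 stood at 156.8 CPM when IFNγ followed, against 2.36 CPM when medium followed. Psmb6 (0.24, SE 0.06, adjusted p = 0.00201) and Psmb7 (0.20, SE 0.06, adjusted p = 0.00788) rose as well, and Psmb5 had 0.04 (adjusted p = 0.715). The step that IFNγ added was larger after TGFβ than after medium by 1.67 for Psmb8 (SE 0.80, adjusted p = 0.383), 1.09 for Psmb9 (0.509), 1.02 for Psmb10 (0.273), 0.77 for Psme1 (SE 0.26, 0.211) and 0.68 for Psme2 (0.268) in the interaction test. By edgeR 0 of 5 interactions passed after adjustment, where 0.395% of all genes did. Before adjustment 4 of 5 had a p below 0.05, and the share of all genes at that cut-off is not given. Without the 2 h library of TGFβ then medium, Psme2 alone passed (0.97, adjusted p = 0.0343, range over its alternatives 0.0343 to 0.746).

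With IFNγ first and TGFβ second, the inducible genes lay nearer the level of medium. Psmb8 had 97.7, 140.4, 67.3 and 93.8 CPM in IFNγ then TGFβ at 2, 6, 12 and 24 h, against 83.8, 82.4, 7.58 and 17.0 CPM in medium then TGFβ. Psmb9 had 14.2, 21.4, 15.5 and 17.6 CPM after IFNγ, against 12.35, 12.9, 0.973 and 2.23 CPM after medium, and all 4 were above all of the medium ones. Psmb10 had 21.0, 23.2, 11.6 and 11.5 CPM after IFNγ, against 19.5, 17.4, 4.97 and 8.89 CPM after medium. The gap between the groups was widest at 12 and 24 h for Psmb8 and Psmb9. The edgeR log2 changes were 1.37 for Psmb8 (SE 0.58, adjusted p = 0.35), 1.40 for Psmb9 (SE 0.51, 0.279), 0.45 for Psmb10 (0.596), 0.34 for Psme1 (0.498) and 0.40 for Psme2 (0.399). By edgeR 0 of 5 passed after adjustment, where 0.0937% of all genes did. Before adjustment 3 of 5 had a p below 0.05, and the share of all genes at that cut-off is not given.

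TGFβ after IFNγ, set against medium after IFNγ, had a small effect in 1 direction. The log2 changes were -0.32 for Psmb8, -0.34 for Psmb9, -0.25 for Psmb10, -0.16 for Psme1 and -0.10 for Psme2, with edgeR adjusted p of 0.71 to 0.832. Each gene was lower with TGFβ in 4 of 4 durations while the ranges overlapped, and 0 of 5 passed, where 7.26% of all genes did. In a fit of these 2 groups by themselves, Psmb8 (-0.33, adjusted p = 0.000108), Psmb9 (-0.35, 0.00401), Psmb10 (-0.26, 0.0176) and Psme1 (-0.16, 0.00391) passed downwards and Psmb7 (0.12, 0.0189) upwards. Over all genes that fit called 3181, of which 1525 were higher, against 1084 called in the fit of all libraries. The effect of TGFβ was less negative after IFNγ than after medium by 1.44, 0.97, 0.93, 0.58 and 0.47 for Psmb8, Psmb9, Psmb10, Psme1 and Psme2. By edgeR 0 of these 5 interactions passed after adjustment (adjusted p = 0.683 to 0.752), and 0% of all genes did. Before adjustment 2 of 5 had a p below 0.05, and the share of all genes at that cut-off is not given.

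The order of the cytokines separated the inducible genes. Psmb9 averaged 69.5 ± 10.4 CPM in TGFβ then IFNγ and 17.2 ± 3.15 CPM in IFNγ then TGFβ (SD, n = 4 each). Psmb10 averaged 65.8 ± 10.1 CPM in TGFβ then IFNγ, against 16.9 ± 6.17 CPM in IFNγ then TGFβ, and Psmb8 averaged 267.5 ± 87.6 CPM in TGFβ then IFNγ, against 99.8 ± 30.3 CPM in IFNγ then TGFβ. The PA28 chains Psme1 and Psme2 averaged 401.4 ± 51.5 and 154.3 ± 13.5 CPM in TGFβ then IFNγ, against 169.3 ± 34.1 and 57.2 ± 8.34 CPM in IFNγ then TGFβ. For none of the 5 genes did the ranges overlap, and the share of all genes without overlap is not given. The edgeR log2 changes were 2.01 for Psmb10 (SE 0.28, adjusted p = 9.49e-06), 2.00 for Psmb9 (SE 0.45, 0.00158), 1.44 for Psme2 (SE 0.18, 3.29e-06), 1.26 for Psme1 (SE 0.19, 2.4e-05) and 1.40 for Psmb8 (SE 0.56, 0.0605). So 4 of 5 passed upwards, where 32.5% of all genes passed and 16.4% upwards, and 0 of 3 constitutive subunits passed (0.01, 0.11 and 0.06 for Psmb5, Psmb6 and Psmb7). Psmb8 passed in 2 of 17 alternatives, with an adjusted p between 0.000577 and 0.171.

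In the single library with both cytokines at once for 24 h, the inducible genes sat near medium then IFNγ and not near medium then TGFβ. Psmb8 had 349.4 CPM with the mix, Psmb9 87.3, Psmb10 81.4, Psme1 473.2 and Psme2 168.3 CPM. The first 3 were each below all 4 libraries of medium then IFNγ, whose lowest values were 356.7, 96.9 and 83.1 CPM, and Psme1 and Psme2 were within that group's range. Psmb5, Psmb6 and Psmb7 had 24.9, 149.4 and 140.8 CPM with the mix. With 1 library there is no replicate check.

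Each inducible catalytic subunit was also divided by the subunit it replaces, per kilobase of principal transcript. The Psmb8 to Psmb5 ratio averaged 8.56 ± 0.288 in medium then IFNγ, 1.07 ± 0.888 in medium then TGFβ and 0.833 ± 0.895 in TGFβ then medium, against 2.86 ± 0.180 in medium then medium (SD, n = 4 each). In TGFβ then medium it was 1.79, 1.40, 0.0771 and 0.0641 at 2, 6, 12 and 24 h, above 1 in the first 2 libraries and below 1 in the other 2. The Psmb9 to Psmb6 ratio averaged 0.447 ± 0.0470 in medium then IFNγ, 0.0335 ± 0.0289 in medium then TGFβ and 0.0257 ± 0.0262 in TGFβ then medium, against 0.0761 ± 0.0254 in medium then medium. The Psmb10 to Psmb7 ratio averaged 0.562 ± 0.0562 in medium then IFNγ, 0.0844 ± 0.0406 in medium then TGFβ and 0.0761 ± 0.0465 in TGFβ then medium, against 0.192 ± 0.0288 in medium then medium. Whether a ratio is above or below 1 depends on the length used: per kilobase of all exons joined, medium then IFNγ cells held 51.0 of Psmb10 and 40.3 of Psmb7, and 66.4 of Psmb10 and 119 of Psmb7 per kilobase of principal transcript. The differences between groups do not depend on it. With the mix the 3 ratios were 7.77, 0.345 and 0.511. After 24 h of TGFβ, IFNγ brought them to 4.37, 0.275 and 0.351, against 8.66, 0.471 and 0.593 after 24 h of medium.

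The log2 ratios were compared by an exact two-sided permutation test of 4 against 4 libraries, whose smallest p is 0.0286, with adjustment over 18 tests, whose smallest adjusted p here is 0.0468. Under IFNγ the differences were 1.58, 2.62 and 1.55 for Psmb8 to Psmb5, Psmb9 to Psmb6 and Psmb10 to Psmb7 (exact p = 0.0286 each). Under TGFβ they were -1.96 (exact p = 0.0286), -1.69 (0.114) and -1.32 (0.0286), and after TGFβ withdrawal -3.07 (exact p = 0.0286), -2.41 (0.0857) and -1.54 (0.0286). After IFNγ withdrawal they were 0.10 (exact p = 0.686), 0.51 (0.0286) and -0.41 (0.229), and the 0.51 of Psmb9 to Psmb6 became 0.22 without the 6 h medium library, while the 0.10 became -0.05 without the 6 h library of IFNγ then medium and 0.23 without the 12 h one, and the -0.41 became -0.22 without the 24 h one. TGFβ before IFNγ gave -0.44 (exact p = 0.143), -0.56 (0.0286) and -0.39 (0.0571) against medium before IFNγ, and IFNγ before TGFβ gave 1.70 (exact p = 0.0286), 1.84 (0.0286) and 0.52 (0.343) against medium before TGFβ. Without the 12 h library of medium then TGFβ, the 3 last differences were 1.10, 1.20 and 0.17, and the -1.69 of Psmb9 to Psmb6 under TGFβ was -1.05. Without the 24 h library of TGFβ then IFNγ, the -0.44 was -0.27. The comparisons share groups, so they are not independent of each other.

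**Figure D4:**
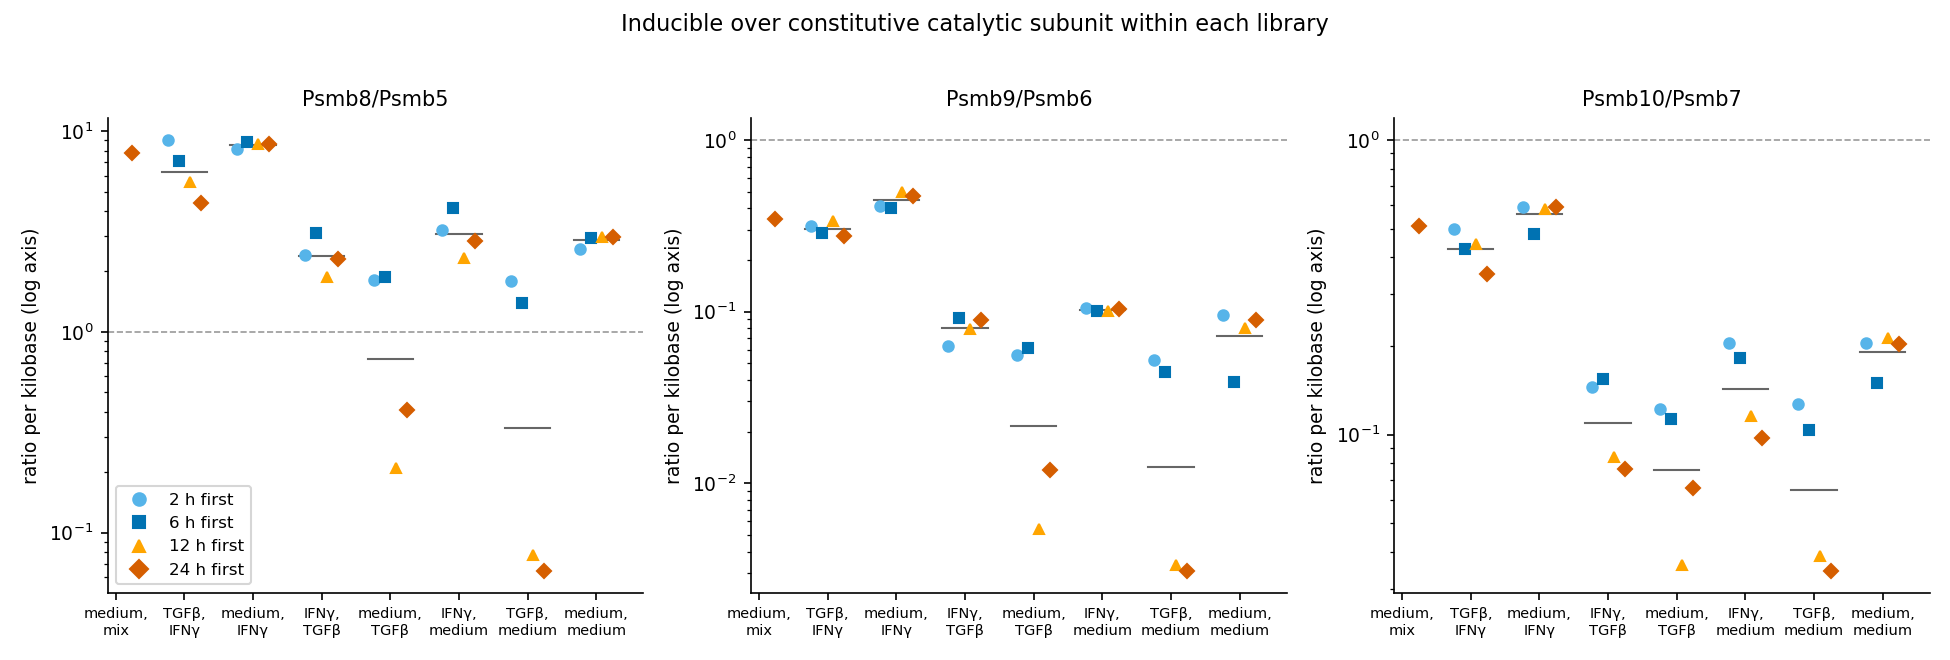
Ratio of CPM per kilobase of each inducible catalytic subunit to its constitutive counterpart, on a log axis, 1 panel a pair, in the 29 libraries, with a dashed line at 1 and grey lines at the geometric group means. With these lengths only Psmb8 to Psmb5 crosses 1, and the points of medium then TGFβ and TGFβ then medium spread downwards by duration.

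The rest of the proteasome moved with IFNγ by small steps. Of 30 tested genes of the core and the 19S cap, 25 rose and 1 fell, where 22.7% of all genes rose, with a median log2 change of 0.26, against 1.60 over the 5 inducible genes and -0.01 over all genes. The alpha ring rose in 6 of 7 (Psma4 by 0.40, and Psma6 had 0.12 with adjusted p = 0.0534) and the other beta subunits in 4 of 4 (Psmb2 0.32, Psmb3 0.19). Of the 19S ATPases, which unfold substrates, 4 of 6 rose (Psmc4 0.31). Without the 6 h medium library, 5 alpha, 3 other beta and 3 ATPase genes rose. Of the non-ATPase subunits 11 of 13 rose (Psmd11 0.60) and Sem1 fell by 0.38. Among 5 assembly chaperones, 3 rose (2 without the 6 h medium library), the largest being Psmg4 with 0.78. The alternative activator gene Psme3 (0.40) and the inhibitor gene Psmf1 (0.27) rose, and Psme4 fell by 0.21. Nfe2l1, which drives proteasome gene transcription in mammals, rose by 0.15, and Ddi2, the protease that activates it, fell by 0.41. The rise of Nfe2l1 did not pass without the duration term, without the 2 h libraries or with only the 2 groups fitted. Whether it bears on the other genes was not tested. The count of 25 was 20 to 25 under the alternatives tried and 22 without the 6 h medium library.

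With TGFβ second, 3 of the same 30 genes rose and 0 fell by edgeR (Psma7 0.28, Psmd1 0.16, Psmd7 0.16). Of all genes, 23.3% passed in either direction, and 1740 of 14935 rose. The median was 0.04, against -1.18 over the 5 inducible genes, and 2 rose without the 6 h medium library. Psmg2 (0.43) and Psme3 (0.26) rose too, and 0 of the 2 transcription genes passed. Of these 2, 1 rose without the 6 h medium library or without all 6 h libraries. With DESeq2, with RLE scaling or without the 2 h libraries, 1 fell. After TGFβ withdrawal 3 of the 30 rose and 2 fell (1 without that library), where 29.0% of all genes passed. Genes of MHC class I processing and loading moved with the inducible genes: under IFNγ 7 of 12 rose, where 22.7% of all genes did. Among them were Tap2 (1.98), Tap1 (1.37), the editor Tapbpl (2.15), the transactivator Nlrc5 (1.60) and the trimming peptidase Erap1 (1.04). The least change of the 12 was that of Pdia3 (0.01). The 7 became 5 without the 6 h medium library and likewise without the 2 h or the 6 h libraries, 6 without the duration term, 9 without the count filter and 10 with only the 2 groups fitted. Under TGFβ 11 of the 12 fell, where 11.6% of all genes did, with a median of -0.95, Tapbp by the most (fell by 1.70) and Canx having -0.12. That count was 3 without the duration term, 2 and 6 with the 12 h and the 24 h libraries left out, and 1 with only the 2 groups fitted. Of 8 genes of IFNγ signalling, 4 rose and 2 fell under IFNγ (Irf1 3.72, Ifngr2 -0.50), where 43.8% of all genes passed. Under TGFβ only Ifngr2 passed (-0.25, edgeR adjusted p = 0.0231), while the transcription factor Irf1 did not (-0.69, adjusted p = 0.0623). That 1 call was lost without the duration term, without the 12 h or the 24 h libraries and with only the 2 groups fitted. Without the count filter 2 passed. After TGFβ withdrawal 4 of the 8 fell, where 14.5% of all genes did. The 4 became 1 without the duration term, 1 without the 12 h or the 24 h libraries, 3 without the 2 h libraries and 0 with only the 2 groups fitted.

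**Figure D5:**
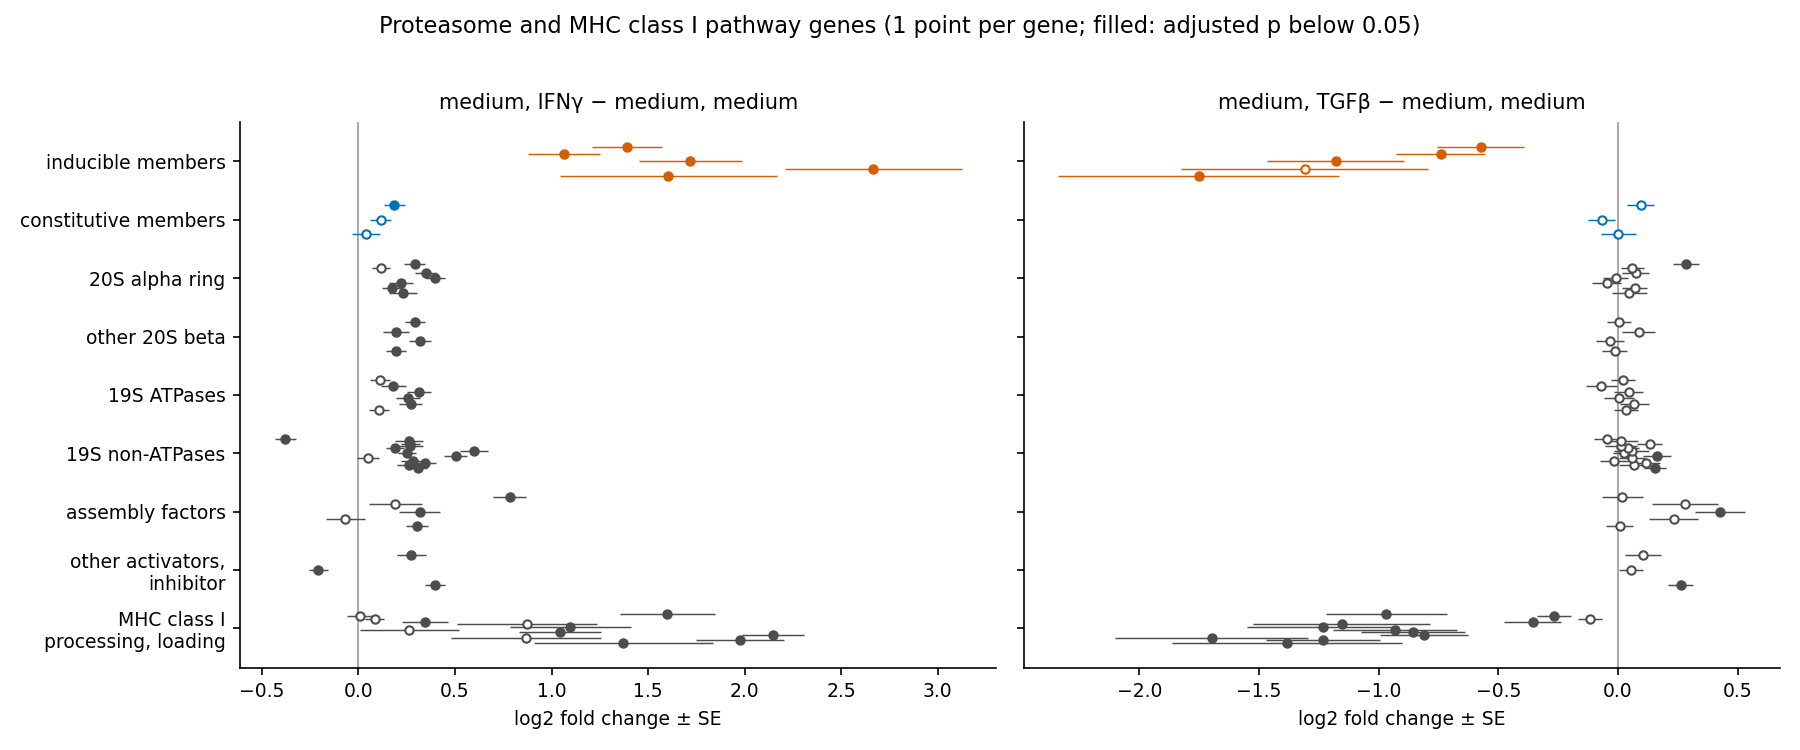
Log2 fold change of the other genes of the proteasome and of class I processing, with the 8 genes described here, grouped by list, for IFNγ against medium and TGFβ against medium, with filled points where the edgeR adjusted p is below 0.05. The core and cap genes sit slightly right of 0 under IFNγ and around 0 under TGFβ, whereas the inducible subunits and most class I genes lie further right under IFNγ and left under TGFβ.

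Over the 29 libraries the log2 CPM of the inducible genes ran together, with Pearson's r of 0.90 to 0.99 between pairs of them and 0.42 to 0.80 between an inducible and a constitutive gene. The 3 genes outside the set with the highest r were Tap1, H2-Q4 and Gbp3 for Psmb8 (0.99 each), Tap1, Tgtp2 and F830016B08Rik for Psmb9 (0.98 each), and Gbp5 (0.995), Samhd1 and Trafd1 (0.99 each) for Psmb10. They were Erap1, Nub1 and Gbp5 for Psme1 and Gm12185, Igtp and Gbp2 for Psme2 (0.99 each). For the constitutive genes they were Ubb (0.93), Fiz1 (0.92) and Angpt1 (0.91) for Psmb6, Rbm8a (0.86), Kcnk10 (0.83) and Snrnp35 (0.82) for Psmb7, and Zfp768 (0.76), Plat (0.72) and 4930442G10Rik (0.71) for Psmb5. These values are descriptions: the libraries fall into 8 treatment groups and share their scaling, so the points are not independent.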

How the data were processed

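The authors deposited a single table of raw read counts per gene for 29 libraries, with gene symbols and coordinates. HISAT, an aligner, and the build GRCm38 appear in the submitters' processing notes, and the sources used here do not give the counting tool, annotation release or strand setting. Without a known strand setting, reads of Psmb9 and Tap1 in their shared stretch, of Psmb7 and Nek6, and of Psme1 and Emc9 cannot be told apart. Each library's depth and the 95% Poisson intervals limit precision by counting error only.

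Counts were filtered with filterByExpr (minimum count 10), leaving 14935 of 28229 genes, scaled by TMM and tested with edgeR 4.0.16 in R 4.3.3 (glmQLFit, glmQLFTest) in 1 model of group and first-stimulation duration, with 18 residual degrees of freedom and Benjamini-Hochberg adjustment over all genes tested at 0.05, for 11 contrasts. Duration served as the replicate block, since the labels give the 4 durations to each group. The correlation of deviations between libraries of equal duration was -0.0409 to 0.233 against medium and 0.106 to 0.401 for the comparisons among cytokine-treated groups other than that of order (0.0672 to 0.359). Slopes on log2 duration came from a second edgeR fit of the 28 libraries in groups of 4. Printed CPM use the TMM-scaled totals. Levels between genes used CPM per kilobase of the APPRIS principal transcript of GENCODE M21. The log2 ratios that were tested used a prior count of 2, and the printed ratios per kilobase used none. DESeq2 1.42.0, RLE scaling, no filter, no block, left-out libraries and fits of only the groups compared were the alternatives. The fit was tested on simulated data.

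The members and gene lists were chosen with earlier results of these data known. Named genes were the 8 members, the highest and lowest of each list and each list gene called where 3 or fewer were, with a few further genes of class I processing and IFNγ signalling chosen after their values were seen.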

Additional observations from a re-analysis of the deposited data

Results flagged for a closer look

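Within groups of 4 libraries, 3 of 56 combinations of gene and group had 1 library far from the other 3, and chance gives about 1 in 20. Psmb10 had 19.6 CPM in the 6 h library of medium then medium, where the other 3 had 28.2 to 28.8 CPM. Psme2 had 69.6 CPM in the same library, where the others had 61.5 to 62.9 CPM. Psmb7 had 153.7 CPM in the 6 h library of medium then IFNγ, where the others had 130.6 to 134.1 CPM.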

How the results depend on the processing

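No value that passed its test changed sign under the alternatives tried. The ratio of Psmb8 to Psmb5 after IFNγ withdrawal, which did not pass, ran from -0.05 to 0.23, and the median of the 30 core and cap genes after TGFβ withdrawal was 0.03, or -0.01 without the 6 h medium library. Of the values and counts that answer a comparison, 796 stayed and 25 moved, and of the single genes 1697 stayed, 63 moved, 16 came to pass the threshold and 51 ceased to. The fit without the replicate block of duration gave 0 inducible genes lower for TGFβ against medium (4 with it) and 3 for TGFβ withdrawal (5 with it). Without all 2, 6, 12 or 24 h libraries, the constitutive genes called under IFNγ (1) were 0 without 6 h and 0 without 12 h, those after TGFβ withdrawal (0) were 1 without 2 h, and those for IFNγ after TGFβ (2) were 1 without 12 h. The inducible genes lower under TGFβ were 0 without 12 h and 1 without 24 h, those after withdrawal 3 without either, and the slopes called in TGFβ then medium (4) were 2 without 2 h and 0 without 24 h. Fits of only the groups compared gave 0 constitutive genes under IFNγ, 0 inducible genes under TGFβ and 0 after withdrawal, 2 inducible genes lower for TGFβ before IFNγ (0), and 4 inducible genes lower with 1 constitutive gene for TGFβ after IFNγ (0). Leaving out single libraries gave 0 to 2 constitutive genes under IFNγ, 2 to 5 inducible genes under TGFβ, 4 to 5 after withdrawal, and 0 to 1 interactions of IFNγ after TGFβ. The cause of these differences was not tested.

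The counts over all genes moved by more than 1.5 times as follows. TGFβ against medium called 3476 genes, 1726 without the block, 1849 and 2188 without 12 and 24 h, and 1054 with only its groups. TGFβ withdrawal called 4325, then 2615 without the block, 2690 without 12 h and 1394 with only its groups. IFNγ withdrawal called 118, then 403 with DESeq2, 6 without the block, 1, 0 and 43 without 6, 12 and 24 h, 0 with only its groups, and 1 to 498 leaving out single libraries. TGFβ before IFNγ called 2365, then 1232 without the block, 1034 and 1317 without 12 and 24 h. IFNγ before TGFβ called 14, then 160 with DESeq2, 93 unfiltered, 1 without the block, 0 without 6 or 12 h, 122 with only its groups and 0 to 45 by single libraries. TGFβ after IFNγ called 1084, then 488 without the block, 512, 430 and 588 without 2, 12 and 24 h, 3181 with only its groups and 687 to 1061 by single libraries. The interaction of IFNγ after TGFβ called 59 (48 higher), then 225 with DESeq2 (149 higher), 114 unfiltered, 16 without the block, 38, 8 and 17 without 2, 12 and 24 h, 15 with only its groups and 31 to 201 by single libraries. That of TGFβ after IFNγ called 0, and 0 to 20 by single libraries. The order of cytokines called 4859, then 3152 and 3153 without 2 and 12 h. Paired by duration, the exact sign-flip permutation test of the ratios cannot go below p = 0.125.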
